A study of Homo sapiens with 16 samples.

Results

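The pericentromere peaks of 12 autosomes were examined in γ-tubulin ChIP-seq of MCF10A cells, a line of human breast epithelium. A peak belonged to this group when its summit lay in 1 of 12 windows of the hg19 assembly, whatever its height. The acrocentric windows ran from the start of chromosomes 13, 14, 15 and 22 to 21 Mb and of chromosome 21 to 15.5 Mb, leaving out chr21:9824000-9829000. The windows of the other autosomes were at 120.5 to 145 Mb on chromosome 1, 88 to 96 Mb on chromosome 3, 45 to 51 Mb on chromosome 5, 56 to 63 Mb on chromosome 7, 38 to 72 Mb on chromosome 9, 50 to 56 Mb on chromosome 11 and 34 to 39 Mb on chromosome 12. Of 2962 peaks in the deposited lists, 334 met this rule, with 114 on acrocentric chromosomes and 220 on the others.

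γ-Tubulin was precipitated with a pair of antibodies, used together, from sonicated nuclei of MCF10A cells and of γTubulinsh-MCF10A cells, a population that stably carries an shRNA against γ-tubulin and was selected with Zeocin, called γTubulinsh cells below. The level of γ-tubulin left in them was not analysed here. All cells had passed through a double thymidine block, which holds them at the start of S-phase, and were harvested 1 h or 2 h after release. Each of these 4 conditions had 2 ChIP libraries and 2 libraries of whole cell extract without antibody, here called the control, and 1 list of peaks made from its libraries together. The values below therefore carry no replicate error, and no difference between conditions was tested.

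γ-Tubulin is best known from the ring complexes at centrosomes that start the growth of microtubules, and a part of it is found in the nucleus. The pericentromere is the DNA on either side of a centromere, built of satellite repeats and of recently duplicated segments and packed mostly as heterochromatin. Acrocentric chromosomes carry their centromere close to one end, with a short arm of satellites and ribosomal DNA. Large stretches of these short arms are unassembled in hg19, so the length of a window overstates the DNA in which a peak could be found. Reads were kept only where they had a single position in the genome, so a repeat with several identical copies could give no peak.

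In MCF10A cells 81 peaks lay in the pericentromere windows at 1 h and 244 at 2 h, which is 3.01 times as many. γTubulinsh cells had 8 peaks there at 1 h and 1 at 2 h. MCF10A cells thus had 10.1 times as many at 1 h and 243 more at 2 h. On the acrocentric chromosomes the numbers were 26 and 83 in MCF10A cells at 1 h and 2 h, a ratio of 3.19, and 4 and 1 in γTubulinsh cells. On the other autosomes they were 55 and 161 in MCF10A cells, a ratio of 2.93, and 4 and 0 in γTubulinsh cells. Both classes of chromosome therefore had more listed peaks at 2 h in MCF10A cells and few in γTubulinsh cells. The nearness of the ratios did not hold for other ways of counting: joined into clusters within 100000 bp, each list by itself, the MCF10A peaks gave 3 acrocentric clusters at 1 h and 8 at 2 h and 23 and 32 on the other autosomes, and peaks of at least 200 bp numbered 6 and 27 on acrocentric chromosomes and 6 and 44 on the others.

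The remaining nuclear peaks differed less between the lists. They are all nuclear peaks outside the 12 windows, and so include any pericentromere peaks of chromosomes without a window. Outside the windows MCF10A cells had 954 peaks at 1 h and 1287 at 2 h, a ratio of 1.35, and γTubulinsh cells had 280 and 78. Along the rest of the same 12 chromosomes, MCF10A cells had 121 peaks at 1 h and 121 at 2 h. The larger number at 2 h on these chromosomes was thus met inside the windows and not outside them. On the chromosomes without a window, MCF10A cells had 833 peaks at 1 h and 1166 at 2 h, a ratio of 1.40. The peaks of the 12 windows made up 7.83% of the nuclear list for MCF10A cells at 1 h (95% exact binomial interval 6.26 to 9.63). At 2 h they made up 15.9% (14.1 to 17.9). In γTubulinsh cells they made up 2.78% at 1 h (1.21 to 5.40) and 1.27% at 2 h (0.0320 to 6.85). These intervals cover counting error only and treat peaks as independent, which peaks of a cluster are not.

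Depth was solved from the peak values, as the lists give no read totals. Relative to MCF10A cells at 1 h, the ChIP reads kept were 0.952 in γTubulinsh cells at 1 h and, at 2 h, 1.11 in MCF10A and 1.20 in γTubulinsh cells. The lowest −log10 p-value differed between the lists, from 5.00 in MCF10A cells at 2 h to 5.95 in γTubulinsh cells at 2 h. When the latter was required of every list, 79, 8, 238 and 1 pericentromere peaks were left, in the order MCF10A 1 h, γTubulinsh 1 h, MCF10A 2 h and γTubulinsh 2 h. The part of depth in the numbers was not tested further.

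**Figure D1:**
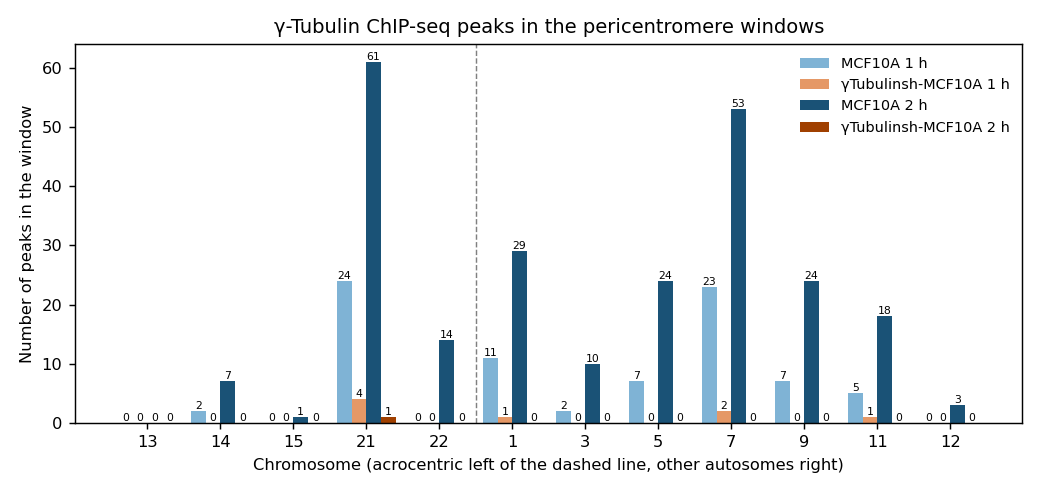
Number of peaks (y axis) in the pericentromere window of each chromosome (x axis), with 1 bar per peak list and its number on top; each list pools both ChIP libraries of a condition, so there are no error bars. Chromosomes 21 and 7 have the tallest bars in both MCF10A lists, and the MCF10A 2 h bar is the tallest on all chromosomes but 13, which has no peak.

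The peaks were unevenly shared among the chromosomes. In MCF10A cells at 2 h the order was chromosome 21 with 61 peaks, 7 with 53, 1 with 29, 5 and 9 with 24 each, 11 with 18, 22 with 14, 3 with 10, 14 with 7, 12 with 3 and 15 with 1. No list had a peak in the window of chromosome 13. At 1 h the order was the same for the highest ranks, with 24 peaks on chromosome 21, 23 on 7, 11 on 1, 7 each on 5 and 9 and 5 on 11. Chromosomes 3 and 14 had 2 each, and chromosomes 12, 15 and 22 had none. Every chromosome with peaks at 1 h had more at 2 h, from 2.30 times as many on chromosome 7 to 5.00 times as many on chromosome 3.

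The acrocentric class was mostly chromosome 21, which held 24 of the 26 acrocentric MCF10A peaks at 1 h, 61 of 83 at 2 h and every acrocentric peak of γTubulinsh cells. Acrocentric chromosomes had 32.1% of the pericentromere MCF10A peaks at 1 h and 34.0% at 2 h, but only 3.51% and 12.0% once chromosome 21 was left out. Per Mb of window, acrocentric chromosomes had 0.261 MCF10A peaks at 1 h and 0.834 at 2 h, and the other autosomes 0.608 and 1.78. Chromosome 21 alone had 3.94 per Mb at 2 h, close to chromosome 5 with 4.0 and below chromosome 7 with 7.57. Chromosomes 13, 14, 15 and 22 had 0, 0.333, 0.0476 and 0.667 per Mb at 2 h, all below the 1.78 of the other autosomes. The first peaks of chromosomes 14, 15 and 22 lay only at positions 19001378, 20001901 and 16848269 of windows that end at 21 Mb. The order per Mb of window is therefore not an order per Mb of assembled DNA. The class values thus cover large differences between chromosomes, and the unassembled part of each window was not measured here.

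The peaks lay in clusters. When neighbouring pericentromere peaks up to 100000 bp apart were joined across lists, 43 clusters resulted, of which 15 were a lone peak, and the 11 with at least 10 peaks held 259 of the 334 peaks (77.5%). All 11 had more peaks of MCF10A cells at 2 h than at 1 h, and 10 of them already had a peak at 1 h. Of the 43 clusters, 35 had more at 2 h, 2 had fewer and 6 had equal numbers. Outside the windows 29 of 33 clusters of that size had more peaks at 2 h and 4 had fewer. Among the 244 MCF10A peaks of 2 h, 203 lay in a cluster that also held one of 1 h, while only 56 shared bases with one. The clusters were joined across lists, so the peaks of 2 h themselves helped to form them. The same share was not counted for all nuclear peaks, so 203 is not read as recurrence.

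The largest cluster by number was chr21:10702074-10858468, with 23 MCF10A peaks at 1 h and 55 at 2 h, and 4 of γTubulinsh cells at 1 h and 0 at 2 h. Its peaks covered, for MCF10A cells, 4092 bp of the 156 kb at 1 h and 10365 bp at 2 h. Their fold enrichment, the ChIP reads at the summit over the local control with 1 added to each, had a median of 4.21 at 1 h (range 2.00 to 6.08) and 4.78 at 2 h (2.15 to 8.96). The control is given below as a multiple of the lowest control in the same list, called the genome background, and its median here was 6.34 times at 1 h and 2.39 times at 2 h. The highest fold enrichment, at chr21:10805260-10805424, rested on 24 reads over a control of 1.06 times the genome background. Past the midpoint of the cluster, at higher coordinates, lay 22 of the 23 peaks of 1 h and 44 of the 55 of 2 h, as the plot of fold enrichment along the clusters shows.

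On chromosome 7 the cluster with the most peaks, chr7:61739499-61801317, had 11 MCF10A peaks at 1 h, 23 at 2 h and 1 of γTubulinsh cells at 1 h. Its median fold enrichment was 5.15 at 1 h and 5.51 at 2 h. The next on this chromosome was chr7:61967188-62022706 with 5 and 13 peaks, where the median fold enrichment was 2.03 and 2.27. The control told these neighbours apart, with a median of 3.17 and 1.57 times the genome background in the first and 37.5 and 25.2 times in the second, at 1 h and 2 h.

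The other chromosomes had 1 leading cluster each. On chromosome 5, chr5:49405702-49472431 had 7 MCF10A peaks at 1 h and 17 at 2 h, and on chromosome 1, chr1:121353526-121483907 had 5 and 15. On chromosome 11, chr11:51569885-51593245 had 5 and 15 peaks, with a median fold enrichment of 2.10 and 2.47 over a control of 47.3 and 14.7 times the genome background. On chromosome 3, chr3:90326930-90496381 had 2 and 9, with the opposite values, a median of 6.69 and 5.89 over a control of 2.04 and 1.13 times. On chromosome 9, chr9:66800829-66843958 had 1 and 9, on chromosome 14, chr14:19001378-19037068 had 2 and 7, and on chromosome 12, chr12:34835655-34854009 had 0 and 2. Chromosome 15 had only chr15:20001901-20002083, a peak of 2 h whose fold enrichment was 3.64. The lowest medians thus lay over the highest controls, and the control is itself the denominator of the fold enrichment. Further clusters of at least 10 peaks were chr1:142535505-142576398, with 4 peaks at 1 h and 8 at 2 h, and chr7:57546507-57556748, with 2 and 9.

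On chromosome 22 all 14 peaks stood in chr22:16848269-16862476 and belonged to MCF10A cells at 2 h. Their fold enrichment ran from 2.50 to 8.74 with a median of 4.22. The highest, at chr22:16853227-16853590, had 27 ChIP reads over a control of 1.30 times the genome background and a score of 159, the score being 10 times the −log10 q-value. Control values over the cluster ran from 1.16 to 9.96 times. What the other lists had at these positions below their threshold is not known from peak lists.

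**Figure D2:**
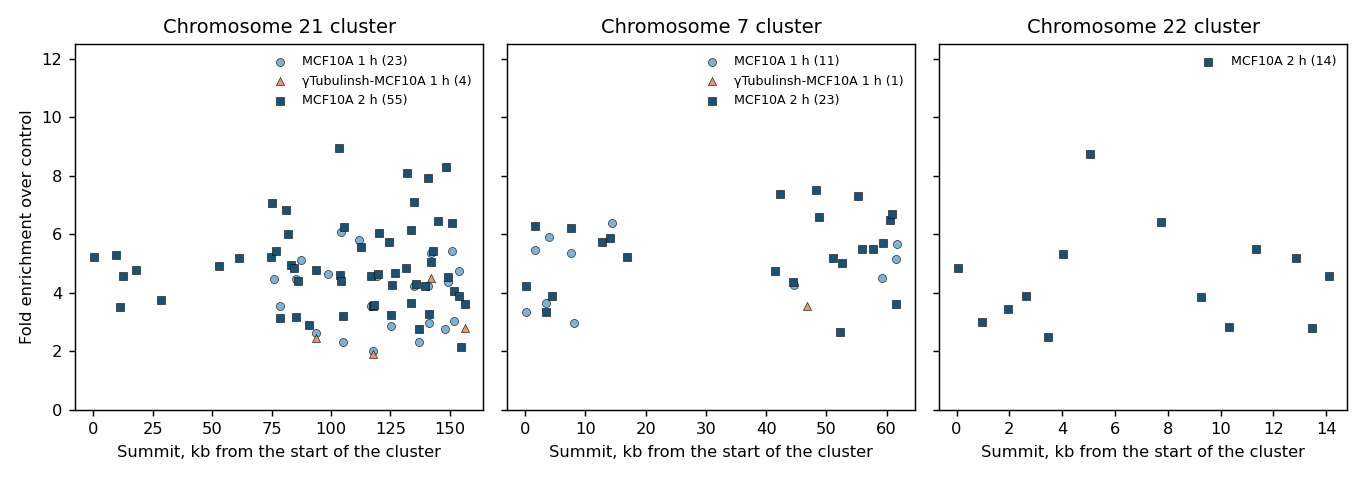
Fold enrichment over control (y axis) of each peak against the position of its summit in kb from the start of the cluster (x axis), for the clusters with the most peaks on chromosomes 21, 7 and 22; symbols mark the lists, with the number of peaks in brackets. On chromosome 21 the 55 peaks of MCF10A cells at 2 h lie among and beside the 23 at 1 h, on chromosome 7 the 23 peaks at 2 h lie in the same stretches as the 11 at 1 h, and on chromosome 22 only MCF10A cells at 2 h have peaks.

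Most of the pericentromere peaks of 1 h were met again at 2 h. Of the 81 MCF10A peaks of 1 h, 57 (70.4%) shared at least 1 bp with a 2 h peak of these cells, close to the 72.1% of all nuclear peaks of that list that did so. The shares were 69.2% of the acrocentric and 70.9% of the other peaks. In the opposite direction, 56 of the 244 peaks at 2 h (23.0%) shared bases with a 1 h peak, whereas 44.2% of all nuclear peaks at 2 h did. The peaks of 1 h were thus found again about as often as in the whole list. The lower share at 2 h, with 188 of 244 found at 2 h alone, largely follows from the larger number of pericentromere peaks at 2 h. It is not a separate result.

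The 188 peaks of MCF10A cells found at 2 h alone had a lower control than the 56 met at 1 h. The median was 2.62 times the genome background against 7.60 times, and 48.4% against 82.1% had a control of at least 3 times. They had 24 ChIP reads at the summit as a median against 46.5, were shorter with 147 against 196.5 bp, and had a median fold enrichment of 4.60 against 3.26. Among the acrocentric peaks found at 2 h alone, 25 of 65 (38.5%) had a control of at least 3 times, and among the others 66 of 123 (53.7%). Outside the windows the difference was smaller, with 70.2% of the peaks found at 2 h alone and 87.7% of those met at 1 h.

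Taken over whole lists, the control under the pericentromere peaks was lower at 2 h. In MCF10A cells at 1 h, 62 of 81 (76.5%) had a control of at least 3 times the genome background, and at 2 h 137 of 244 (56.1%). For acrocentric peaks the shares were 84.6% and 45.8%, and for the other autosomes 72.7% and 61.5%. The remaining nuclear peaks had 83.1% and 78.6%. With a control of at least 3 times, the pericentromere windows had 2.21 times as many peaks at 2 h as at 1 h, and with a lower control 5.63 times as many (19 and 107). The same ratios outside the windows were 1.28 and 1.71. The number of pericentromere peaks was therefore larger at 2 h on either side of this limit, by more than in the rest of the nuclear lists, and most so for acrocentric peaks with a low control (4 and 45 peaks, compared with 15 and 62 on the other autosomes).

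**Figure D3:**
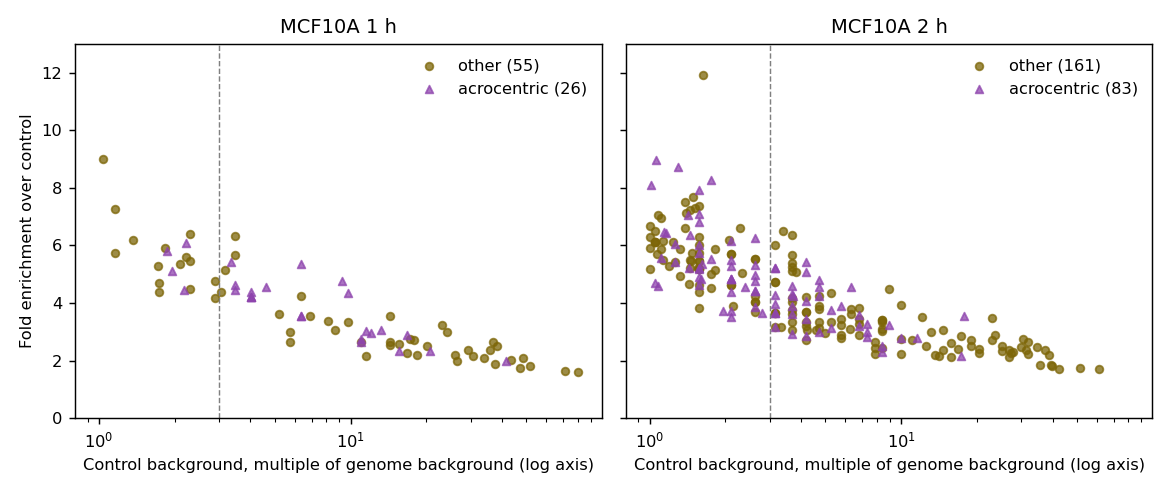
Fold enrichment over control (y axis) against the control background at the summit as a multiple of the genome background (x axis, log scale) for each pericentromere peak of MCF10A cells at 1 h (left) and 2 h (right); triangles are acrocentric chromosomes, circles the other autosomes, and the dashed line marks 3 times. At 2 h many more points lie left of the line (107, compared with 19 at 1 h), and the highest fold enrichments lie there, the highest right of the line being 6.52; the control is itself the denominator of the fold enrichment.

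At the 57 pericentromere peaks of MCF10A cells at 1 h that had a partner at 2 h, positions were close. The summits lay 13 bp apart as a median, and in 47 of 57 pairs within 50 bp. The fold enrichment was higher at 2 h in 40 of 57 pairs, with medians of 2.87 and 3.28. Scaled to equal depth, the ChIP reads at the summit were lower at 2 h in 48 of 57 pairs, with medians of 54.0 and 41.4 reads. The control was lower at 2 h in 52 of 57 pairs, with medians of 14.4 and 7.34 times the genome background. As medians over the pairs, the value at 2 h was 1.11 of that at 1 h for fold enrichment, 0.863 for scaled reads and 0.682 for the control. The reads were divided by depth, 1.11 at 2 h relative to 1 h. The control was divided by the genome background, 1.40 at 1 h and 1.69 at 2 h. The ratios of reads and control are therefore not on 1 scale, and the sizes of their differences are not compared.

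The direction of the ChIP reads depended on the scaling for some pairs. Without it they were lower at 2 h in 33 of 57 pairs and higher in 19. The acrocentric pairs had lower reads either way, in 18 of 18 pairs with scaling and in 16 of 18 without, and their scaled reads at 2 h were 0.742 of those at 1 h as a median. In the 39 pairs of the other autosomes the scaled reads were 0.901 of those at 1 h, lower in 30 pairs with scaling and in 17 without. Outside the windows the same pattern was found, with a higher fold enrichment in 558 of 689 pairs, lower scaled reads in 547 and a lower control in 638. It was thus not particular to these windows, and only peaks listed at both times could enter it. Whether it holds away from the pericentromeres of all chromosomes was not examined.

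**Figure D4:**
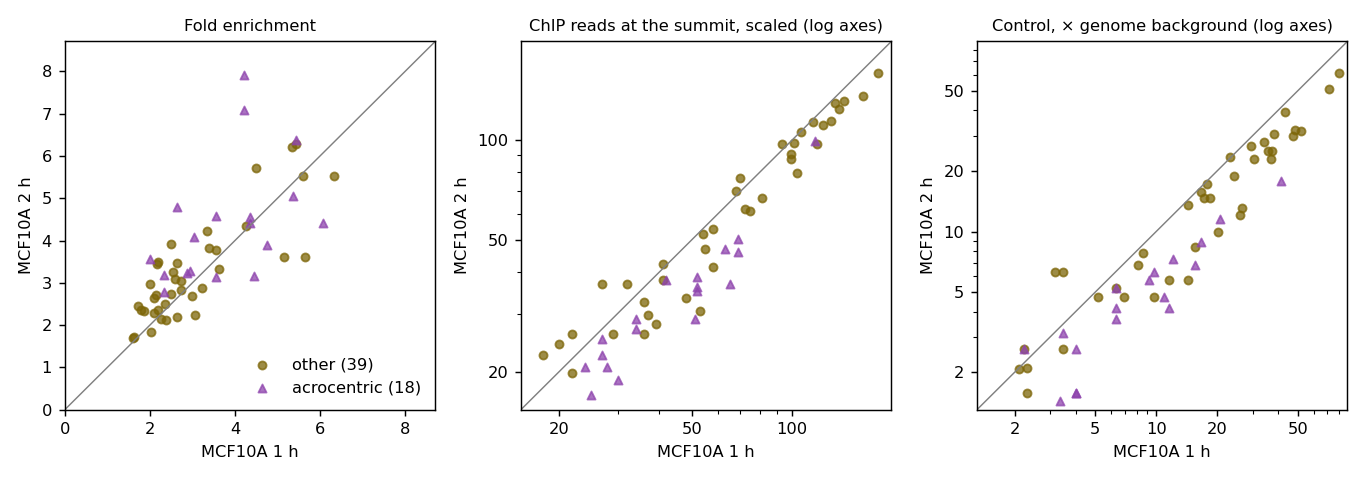
Values at 1 h (x axis) and 2 h (y axis) of the 57 pericentromere peaks of MCF10A cells listed at both times: fold enrichment (left), ChIP reads at the summit scaled to the depth of the 1 h list (middle, log axes) and control as a multiple of the genome background (right, log axes). The grey line marks equal values; most points lie above it for fold enrichment (40 of 57) and below it for reads (48) and control (52).

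In γTubulinsh cells the few pericentromere peaks can be given 1 by 1. No position had a peak in all 4 lists, and none had a peak in both lists of γTubulinsh cells. Over all nuclear peaks of γTubulinsh cells such overlap was also limited. It was met by 38 of 288 peaks of 1 h (13.2%) and 41 of 79 of 2 h (51.9%). With 8 and 1 peaks in the windows, its absence there cannot be set apart from these shares. When overlapping peaks were joined, 271 positions resulted, of which 4 had a peak in 3 lists, 54 in 2 and 213 in 1. The 4 positions were listed for MCF10A cells at both times and for γTubulinsh cells at 1 h, and 3 of them lay in the cluster on chromosome 21.

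At chr21:10844136-10844241, γTubulinsh cells at 1 h had their highest score in the windows, 136, with a fold enrichment of 4.51. MCF10A cells had 5.37 at 1 h and 5.06 at 2 h there. The ChIP reads at the summit were 52 in both 1 h lists and 40 in MCF10A cells at 2 h, before scaling. The control was 8.38 times the genome background in γTubulinsh cells and 6.34 and 4.19 times in MCF10A cells. The equal reads and unequal control of the 1 h lists gave the lower fold enrichment of γTubulinsh cells by its definition.

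At chr21:10819372-10819742 the order of the control was alike, while that of the reads and of the fold enrichment was not. γTubulinsh cells at 1 h had 134 reads, a control of 54.1 times the genome background and a fold enrichment of 1.92, and MCF10A cells had 117 reads, 41.5 times and 2.00 at 1 h and 110 reads, 17.8 times and 3.56 at 2 h. At chr21:10795645-10795823 the reads were 44 in γTubulinsh cells at 1 h and 42 in both MCF10A lists, and the fold enrichments were 2.45, 2.64 and 4.78 over controls of 13.5, 10.9 and 4.72 times. At chr1:121357927-121358052 the reads were 134, 138 and 138 and the fold enrichments 1.99, 2.64 and 3.47, over controls of 52.2, 36.9 and 23.1 times. At all 4 positions γTubulinsh cells had the highest control of the 3 lists and the lowest fold enrichment. The part of the control in the missing peaks of γTubulinsh cells was not tested.

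The remaining peaks of γTubulinsh cells at 1 h numbered 4. The peak chr21:10858286-10858468, with a fold enrichment of 2.81, overlapped a peak listed for MCF10A cells at 2 h alone, where it was 3.60. The others overlapped no MCF10A peak. They were chr7:57546507-57546613 and chr7:61786259-61786364, with fold enrichments of 3.47 and 3.55 and summits 1041 and 1389 bp from the nearest of MCF10A cells, and chr11:54719270-54719378, with 3.66 and 297324 bp. In all, 4 of the 8 peaks overlapped an MCF10A peak of 1 h and 5 of 8 one of 2 h, compared with 73.6% and 78.1% of all nuclear peaks of that list. By class, the overlap with MCF10A cells at 2 h was 4 of 4 for acrocentric peaks and 1 of 4 for the others, numbers too small to set apart.

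The only pericentromere peak of γTubulinsh cells at 2 h was chr21:14342383-14342525. Its score of 16, with a fold enrichment of 2.31, placed it 83rd of the 84 peaks of its list. It had 43 ChIP reads over a control of 10.2 times the genome background and overlapped a 2 h peak of MCF10A cells with a fold enrichment of 2.83, 37 reads and a control of 7.34 times. No peak of γTubulinsh cells in the windows, at either time, had a control under 5.80 times the genome background. High controls were common in the whole list of 1 h, where 90.6% of the nuclear peaks had at least 3 times. The median there was 22.6 times, compared with 9.67 times for the 8 peaks in the windows.

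Few pericentromere peaks of MCF10A cells had scores near the top of their lists. The best rank by score was 72 of 1035 in MCF10A cells at 1 h, 26 of 296 in γTubulinsh cells at 1 h and 41 of 1547 in MCF10A cells at 2 h. Of the nuclear peaks in the top 10% by score, 4 of 104 lay in the windows in MCF10A cells at 1 h and 3 of 154 at 2 h, where the windows held 7.83% and 15.9% of the nuclear peaks. In γTubulinsh cells the numbers were 1 of 29 at 1 h, where the windows held 2.78%, and 0 of 8 at 2 h. The median score was 67 at 1 h and 68 at 2 h in the windows, and 87 and 102 outside them. The median fold enrichment was 3.39 and 4.21 in the windows and 3.26 and 3.75 outside, and the median ChIP reads at the summit were 41 and 27 compared with 54 and 49. The windows thus held peaks of similar fold enrichment built on fewer reads.

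Acrocentric peaks had higher medians of fold enrichment than those of the other autosomes in both MCF10A lists. At 1 h the medians were 4.21 (range 2.00 to 6.08) and 2.98 (1.60 to 9.0), and at 2 h 4.57 (2.15 to 8.96) and 3.78 (1.70 to 11.9), so the ranges overlapped widely. The median control was 6.34 and 10.9 times the genome background at 1 h and 2.62 and 3.67 times at 2 h. The median scores were close, 69 and 65 at 1 h and 65 and 68 at 2 h. Because chromosome 21 supplied most acrocentric peaks and peaks of a cluster are not independent, this difference was not tested.

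The highest score of each class was found in different lists at different places. Among acrocentric peaks it was 192 at chr21:10855993-10856139 in MCF10A cells at 1 h (fold enrichment 4.75, 65 reads) and 234 at chr21:10819324-10819760 at 2 h (3.56, 110 reads). Among the other autosomes it was 188 at chr5:49438310-49438448 at 1 h (3.22, 106 reads) and 312 at chr9:69814237-69814360 at 2 h. In γTubulinsh cells at 1 h it was 136 on chromosome 21, as given above, and 84 at the peak of chromosome 11.

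The peak chr9:69814237-69814360 stood out by its height. It had the highest fold enrichment of all pericentromere peaks, 11.9, with 44 ChIP reads over a control of 1.64 times the genome background. It was 1 of the 15 lone peaks, with no other pericentromere peak of any list within 100000 bp, and was listed for MCF10A cells at 2 h only. The highest fold enrichment at 1 h, 9.0 at chr3:90356520-90356654, likewise lay over a control near the genome background, 1.03 times, and rested on 21 reads.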

How the data were processed

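The authors sequenced ChIP and whole cell extract libraries on the Ion Proton and mapped the reads with Bowtie 1.0.0, keeping unique positions. Per the labels the build was hg19 and peaks were called with MACS2 2.1.1, from both libraries of a condition. The deposited fold enrichment is a ratio to the local control, with a −log10 p-value and a −log10 q-value by the authors, and the score deposited beside them is 10 times the latter. The paper's methods describe differential calling, whereas the files have the columns of calls against a control.

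Positions are counted from 1. Under MACS2's formulas, fold enrichment and p-value gave the ChIP reads and control of a summit, with a tolerance of 0.002 in −log10 p; 100% of peaks in each list gave a whole number of reads, in γTubulinsh cells at 2 h after a scale of 0.943. The procedure was tested on simulated data. The lowest control of a list was taken as its genome background and, divided by the shortest peak and the scale, as its depth. Fold enrichments of different lists were set side by side and not read as amounts of binding. Peaks were named by rule: positions in all 4 lists, or in both lists of γTubulinsh cells alone (none was found), the highest score of each class and list, and the leading cluster of each chromosome. The remaining peaks of γTubulinsh cells, the highest fold enrichments and some further clusters were named after their values were seen. Members and lists were chosen with earlier results of these data known. With 1 list per condition no test was made. Genes and sequences of hg19 were not used here. Scripts ran in Python 3.11.15 with pandas 2.3.3 and numpy 2.4.6, intervals came from scipy 1.17.1 and plots from matplotlib 3.10.9.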

Additional observations from a re-analysis of the deposited data

Results flagged for a closer look

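From 1 h to 2 h the number of pericentromere peaks differed by 163 in MCF10A cells and by -7 in γTubulinsh cells, and so in opposite directions. On acrocentric chromosomes the changes were 57 and -3, and on the other autosomes 106 and -4. All nuclear peaks together changed by 496 and -209, so the opposite directions were not particular to the windows. Each rests on 1 list per condition, and the difference was not tested.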

How the results depend on the processing

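No paired analysis was possible because a single list pools the libraries of a condition, and for the same reason no replicate could be left out. MCF10A cells had more pericentromere peaks at 2 h than at 1 h, and more than γTubulinsh cells at both times, under all 8 settings, with a ratio of 2 h to 1 h from 1.54 to 5.92. Scores no lower than the pooled median left, for MCF10A and γTubulinsh cells at 1 h and then at 2 h, 24, 1, 85 and 0 peaks, a length of at least 200 bp left 12, 1, 71 and 0, and a control under 3 times the genome background left 19, 0, 107 and 0. Clusters within 100000 bp numbered 26, 5, 40 and 1. The acrocentric share of MCF10A cells at 1 h was 50% with the minimum length, 11.5% of clusters and 21.1% with the low control, and at 2 h 20% of clusters and 42.1% with the low control. In γTubulinsh cells at 1 h it was 100% with either the score or the length, from 1 peak, and 20% of clusters, 1 of 5. With the pooled median score the share of peaks met in the other MCF10A list was 58.3% at 1 h and 16.5% at 2 h, and 100% of the 1 peak left of γTubulinsh cells at 1 h was met in either MCF10A list. With the low control the shares were 26.3% at 1 h and 9.35% at 2 h. The p-value required of every list and the chromosomes left out in turn were added after the data were seen. Leaving out a chromosome gave a ratio of 2 h to 1 h in MCF10A cells between 2.84 and 3.29.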

Other observations

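Neighbouring summits within the windows were farther apart than outside them, where any pericentromere peaks of chromosomes without a window are included. In MCF10A cells 19.2% of neighbouring summits were within 1000 bp at 1 h and 29.6% at 2 h, compared with 46.2% and 54.3% outside. The median distance was 5096 bp at 1 h and 2042 bp at 2 h in the windows. At 2 h it was 1323 bp on acrocentric chromosomes and 2680 bp on the other autosomes, and the closest summits lay 259 and 115 bp apart. At the edges of the windows, the nearest peak inside was 1.49 kb from an edge and the nearest outside 30.2 kb, both on other autosomes.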
